A study of Mus musculus with 73 samples.

Results

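The mitochondrial respiratory chain is built from subunits of nuclear and of mitochondrial origin, and the genes described here are its nuclear-encoded part in mouse jejunum. They were chosen by symbol: Nduf genes (complex I and its assembly factors), Sdha to Sdhd (complex II), Uqcr genes (complex III), Cox4 to Cox8 genes (complex IV) and Atp5 genes (complex V), with pseudogenes left out. Among the 17399 genes counted in bulk epithelium, 88 met this rule. Of these, 35 belonged to complex I, 7 were complex I assembly factors, 4 belonged to complex II, 8 to complex III, 17 to complex IV and 15 to complex V, and Atp5s and Atp5sl were kept apart because they are named after ATP synthase without being stable subunits of it. Cox4i1 and Ndufa13 were not analysed here in the epithelial and single-cell counts.

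All mice were males and all samples came from the jejunum. Bulk epithelium was taken from 4-month-old Lgr5(GFP-ires-DTR/+) mice 48 h after diphtheria toxin (DT, 4 mice) or saline vehicle (control, 4 mice), so the controls also carry the knock-in that places GFP and the diphtheria toxin receptor under Lgr5. In this line every cell with Lgr5 expression is a target, both crypt stem cells and the telocytes of the villus tip, and their losses cannot be told apart. Single cells were sorted in 12 gates from 8 C57BL/6 mice aged 3 months. Most gates were named for the telocyte marker PDGFRa, and the others were CD31, CD45Singlets, EpcamSinglets and TripleNeg. From 5 C57BL/6 mice of the same age, 4 stromal zones were cut by laser capture microdissection (LCM). Ages are those of the labels, and the methods of the study give other ages. Each of the 8 bulk samples was 1 mouse, with replicates 1 and 2 of each group in batch a and replicates 3 and 4 in batch b.

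Complexes I and II feed electrons from NADH and succinate into the chain, complex III passes them to cytochrome c, complex IV hands them to oxygen, and complex V uses the resulting proton gradient to make ATP. Complex II is the only one without a mitochondrially encoded subunit and is also an enzyme of the citric acid cycle. Absorptive enterocytes depend on mitochondrial ATP for transport, and the nuclear genes of the chain are classical targets of NRF1 and of the ETS factor GABP.

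To show what the members share in sequence, their promoters were read from RefSeq on GRCm38.p6, from 250 bases before to 50 bases after the transcription start. A promoter was found for 74 of the 88 members. The NRF1 palindrome, the 10 bases in capitals in each line that follows, was present in 7 of the 74 (9.46%), against 1.07% of 27025 mouse genes with a promoter in the table and 2.56% of the 6879 among them that were tested in the bulk epithelium. The ETS core CCGGAAG, searched on both strands, was present in 17 of the 74 members (23.0%), against 9.93% of all promoters and 22.6% of those of genes tested in the bulk epithelium, so its share in the members was near that of expressed genes. The palindromes are shown in capitals with 10 bases on each side, because they mark the members with the motif that stood furthest above its share in other genes. Position is given relative to the transcription start.
Atp5g2, complex V, minus strand, chr15:102671070-102671099, motif from -42: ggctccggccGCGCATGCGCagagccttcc
Atp5k, complex V, minus strand, chr5:108434430-108434459, motif from -50: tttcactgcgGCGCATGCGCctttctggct
Cox6a1, complex IV, minus strand, chr5:115349101-115349130, motif from -162: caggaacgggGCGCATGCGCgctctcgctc
Ndufa11, complex I, plus strand, chr17:56717692-56717721, motif from -60: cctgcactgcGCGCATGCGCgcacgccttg
Ndufaf4, complex I assembly, plus strand, chr4:24897960-24897989, motif from -113: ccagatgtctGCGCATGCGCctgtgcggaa
Ndufaf5, complex I assembly, plus strand, chr2:140170652-140170681, motif from 17: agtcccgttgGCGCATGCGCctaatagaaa
Uqcrc1, complex III, plus strand, chr9:108936668-108936697, motif from 31: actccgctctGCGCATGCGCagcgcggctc

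The whole promoters of 2 members of complex IV are given because they differ in these motifs. Cox6a1 encodes a broadly expressed subunit and its window holds both motifs, in capitals, the ETS core on the opposite strand and closer to the start. Cox7a1 encodes the heart and muscle form of its subunit and is the member that separated cell classes most in the single cells. Its window holds neither motif, as was the case for most members with a promoter. A link between promoter and cell class was not tested.
Cox6a1, minus strand, chr5:115348909-115349208: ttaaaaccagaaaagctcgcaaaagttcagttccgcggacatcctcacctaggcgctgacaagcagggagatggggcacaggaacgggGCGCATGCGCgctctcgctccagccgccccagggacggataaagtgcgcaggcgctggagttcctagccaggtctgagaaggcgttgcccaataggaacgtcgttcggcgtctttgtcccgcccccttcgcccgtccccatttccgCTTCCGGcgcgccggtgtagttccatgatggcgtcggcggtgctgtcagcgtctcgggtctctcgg
Cox7a1, plus strand, chr7:30183921-30184220: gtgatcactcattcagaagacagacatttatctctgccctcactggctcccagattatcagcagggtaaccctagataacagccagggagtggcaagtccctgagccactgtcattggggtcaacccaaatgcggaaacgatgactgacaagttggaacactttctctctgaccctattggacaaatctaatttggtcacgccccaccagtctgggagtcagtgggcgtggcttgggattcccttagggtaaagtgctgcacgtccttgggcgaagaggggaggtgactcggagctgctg

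Bulk libraries held 748458 to 4210158 unique molecular identifiers (UMIs), and levels are given as CPM, the UMIs of a gene scaled to a common library total. These come from 3′ ends and are compared between samples, not between genes. Control 2 stood apart. It had the smallest library and the largest share of mitochondrially encoded RNA (13.2%, against 5.39% to 8.45% in the other controls and 5.14% to 8.00% after DT). The members made up 1.74% of its UMIs, against 3.22% to 4.42% in the other controls and 3.34% to 5.18% after DT, so values without it are given beside the results that it could move. Lgr5 itself was at 39.0 ± 28.7 CPM in controls and 24.5 ± 18.6 CPM after DT (SD, n = 4 each, log2 fold change -0.75, edgeR adjusted p = 0.258).

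Every complex had a higher mean level after DT than in controls, in each batch, yet no single member passed the test. For the 35 genes of complex I, the proton pump that oxidises NADH, summed CPM were 8466, 5329, 9758 and 11021 in controls 1 to 4 and 8594, 11093, 13152 and 12796 in DT 1 to 4. Within each batch both DT mice lay above both controls, while across batches the groups overlapped. The ratio of means was 1.32, with 1.43 in batch a, 1.25 in batch b and 1.17 without control 2.

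Complex III had 4318, 2756, 4653 and 5553 CPM in controls and 4410, 5491, 6366 and 6491 CPM after DT. Its ratio was 1.32, again with no overlap within either batch, and 1.18 without control 2. The 7 assembly factors of complex I, which are not part of the finished enzyme, summed to 138, 92.7, 202 and 219 CPM in controls and 162, 234, 252 and 270 CPM after DT. They had the largest ratio of any group, 1.41, with 1.72 in batch a and 1.24 in batch b, and it was 1.23 without control 2.

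Complexes IV and V were less separated. Complex IV had 8605, 3761, 9652 and 11560 CPM in controls and 8271, 12088, 12774 and 12500 CPM after DT, and complex V had 10452, 6241, 12453 and 13964 CPM against 10256, 13519, 15684 and 15055 CPM. In both complexes DT 1 lay just below control 1, and in batch b both DT mice lay above both controls. Ratios were 1.36 for complex IV and 1.26 for complex V, and fell to 1.15 and 1.11 when control 2 was left out.

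Complex II had the lowest ratio of the complexes. Its 4 genes summed to 1471, 940, 1777 and 1829 CPM in controls and 1332, 1750, 2167 and 1699 CPM after DT. The groups overlapped in both batches, with ratios of 1.15 over all 8 mice, 1.28 in batch a, 1.07 in batch b and 1.03 without control 2. In bulk samples, fewer cells of a type and less RNA per cell cannot be told apart, in this and every result above.

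**Figure D1:**
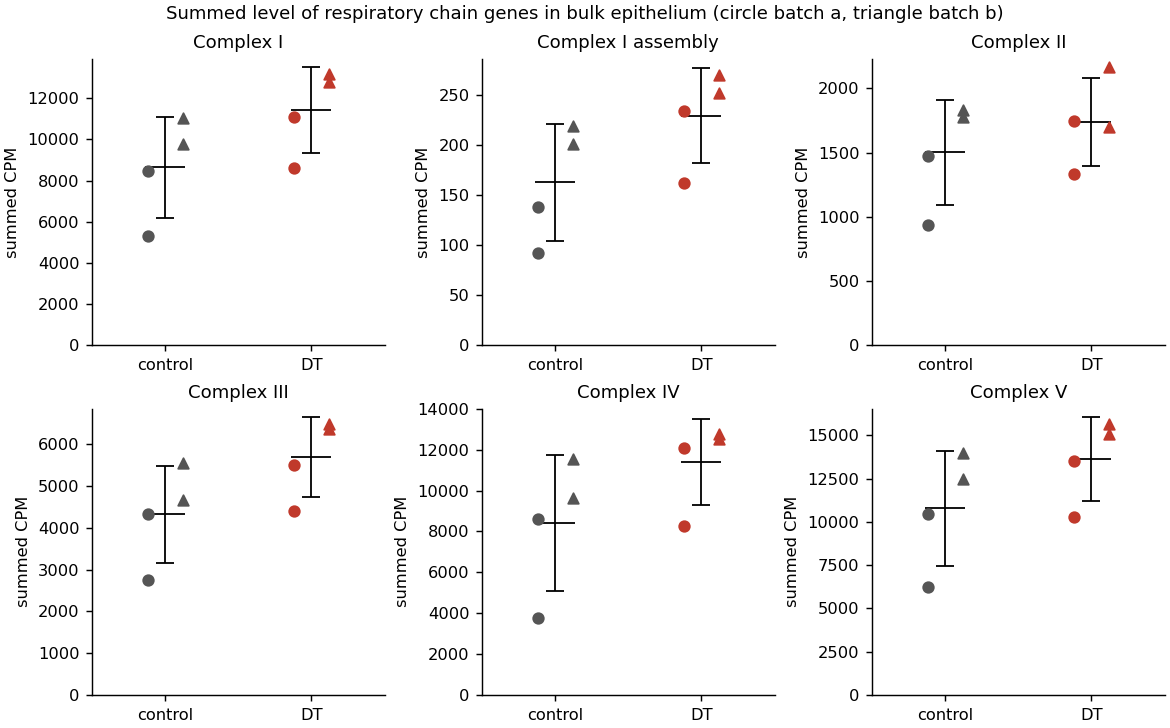
Summed CPM (y axis, from 0) of the nuclear-encoded genes of each complex in control and DT mice, with circles for batch a and triangles for batch b, and the bar and whiskers giving mean ± SD of 4 mice. DT samples of batch b sit above both batch b controls except for complex II, where DT 4 (1699) sits below them, and the lowest control in every panel is control 2.

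Gene by gene, 83 members were abundant enough to be tested among 8986 genes (edgeR quasi-likelihood test with batch as a term, Benjamini-Hochberg adjustment). No member was called at an adjusted p under 0.05, where 0.0223% of all genes were called higher and 0.334% lower. All 83 log2 fold changes were above 0, where 50.5% of all genes were, and their median was 0.43 against 0.0041 over all genes. At an unadjusted p under 0.05 stood 19 of 83 members (22.9%), against 17.3% of all genes, and without control 2 it was 7 of 83 (8.43%), against 14.0% of all genes. With the replicate number as a block the calls were 0 higher and 3 lower over all genes, with 6 members (7.23%) at an unadjusted p under 0.05, against 12.7% of all genes. Without the filter on low counts 3 members passed, Ndufb6 (adjusted p = 0.0167), Ndufs8 (0.0296) and Ndufb11 (0.0341), where 1.95% of genes were called higher and 2.15% lower. DESeq2 called none of the 83, with 29 at an unadjusted p under 0.05 (16.8% of all genes), where it called 0.501% of genes higher and 1.27% lower.

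By complex, the median log2 fold change was 0.45 for complex I, 0.43 for its assembly factors, 0.20 for complex II, 0.40 for complex III, 0.47 for complex IV and 0.44 for complex V. Without control 2 these medians were 0.29, 0.37, 0.091, 0.27, 0.23 and 0.23, in the same order. Of the 19 members at an unadjusted p under 0.05, 14 were among the 35 of complex I and 3 among its 7 assembly factors. Complexes III and IV had 1 each, Uqcr10 and Ndufa4, and complexes II and V had none. Uqcr10 is a small subunit of complex III, and Ndufa4, named for complex I, is counted with complex IV, in which it is now placed.

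In all 4 DT mice above all 4 controls stood 2 of the 83 members, Ndufaf2 and Ndufaf5, where 1.25% of all genes did so. Both DT mice lay above both controls for 34 members in batch a (22.5% of all genes) and for 58 members in batch b (21.6%), and in both batches at once for 29 members (9.73%). Without control 2, the 4 DT mice lay above the other 3 controls for 4 members (1.94% of all genes), both DT mice of batch a lay above control 1 for 36 (35.1%), and the pattern held in both batches for 31 (12.4%). By complex, batch b had this pattern for 30 of 35 members of complex I, 5 of 7 assembly factors, 0 of 4 of complex II, 7 of 8 of complex III, 6 of 12 of complex IV and 9 of 15 of complex V. The mean after DT was above the control mean in each batch for 81 members, where 35.6% of all genes were.

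The size of the difference varied with the batch. The median of the members was 0.60 in batch a (80 tested, 79 above 0) and 0.27 in batch b (83 tested, 80 above 0), with none called in either. In batch a no gene of 8193 passed, and 8.8% had an unadjusted p under 0.05, as did 5 members. In batch b 0.0585% of 8547 genes were called lower and none higher, and 9.07% had an unadjusted p under 0.05, as did 2 members. Complex IV went from a median of 0.77 in batch a to 0.24 in batch b, complex V from 0.56 to 0.24, complex I from 0.61 to 0.30 and complex II from 0.31 to 0.10. Tested as a batch-by-group term in edgeR, the difference was called for no gene (0 of 8986, with 223 or 2.48% at an unadjusted p under 0.05). Ndufaf5 was the 1 member at that unadjusted level, chosen after its value was seen (difference -1.22 ± 0.47, adjusted p = 1.00). Without control 2, 81 members stayed above 0, with a median of 0.27. Control 2 is 1 of the 2 controls of batch a, and its part in the larger values of batch a was not tested. The members summed to 33520 and 19180 CPM in controls 1 and 2 and to 33089 and 44254 CPM in DT 1 and DT 2. Batch a was not fitted without control 2.

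**Figure D2:**
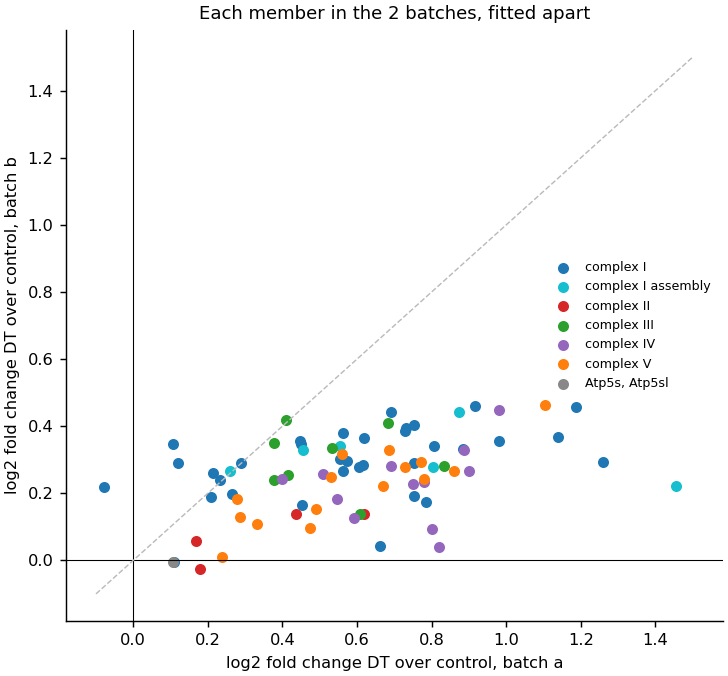
log2 fold change of DT over control for each member fitted in batch a (x axis) and in batch b (y axis), coloured by complex, with equal values on the dashed line. Most points lie to the right of 0 and above it, below the dashed line, with a median of 0.60 on the x axis and 0.27 on the y axis.

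Ndufaf2, an assembly factor of complex I, had the smallest p of the members. It was at 25.9, 29.4, 31.3 and 29.1 CPM in controls and 43.4, 56.5, 41.5 and 41.6 CPM after DT. Every DT mouse lay above every control, and control 2 was not the lowest. Its log2 fold change was 0.64 ± 0.18 (SE, adjusted p = 0.192), and 0.62 without control 2. Ndufaf5, another assembly factor and 1 of the 7 members with the NRF1 palindrome, was at 7.90, 5.89, 15.97 and 14.3 CPM in controls and 17.5, 21.4, 18.9 and 16.6 CPM after DT, a log2 fold change of 0.65 ± 0.27 (adjusted p = 0.248), and 0.53 without control 2. Its groups did not overlap either, by a small margin between control 3 and DT 4.

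Accessory subunits of complex I followed. Ndufb6, a membrane arm subunit, was at 140, 45.6, 258 and 262 CPM in controls and 164, 266, 393 and 329 CPM after DT. DT mice were higher within each batch, and control 2 was far below the rest. Its log2 fold change of 0.81 ± 0.31 (adjusted p = 0.233) went to 0.53 without control 2. Ndufc2, also of the membrane arm, had 159, 70.6, 211 and 217 CPM in controls and 168, 269, 279 and 318 CPM after DT (0.68 ± 0.25, adjusted p = 0.232), and Ndufv3, of the NADH-oxidising module, had 250.8, 129, 273 and 308 CPM against 304, 364, 380 and 365 CPM (0.57 ± 0.23, adjusted p = 0.246). Both had DT above control within each batch, and without control 2 their values were 0.47 and 0.38. Ndufb8 differed more by batch than by group, with 7.90 and 2.94 CPM in controls and 7.51 and 15.6 CPM after DT in batch a, and with 81.2 and 118 CPM against 148 and 150 CPM in batch b (0.68 ± 0.25, adjusted p = 0.232, and 0.58 without control 2).

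The catalytic core did not follow one pattern. Ndufs8, an iron-sulfur subunit on the electron path of complex I, was at 103, 35.3, 256 and 244 CPM in controls and 129, 210, 332 and 287 CPM after DT (0.75 ± 0.31, adjusted p = 0.249, and 0.46 without control 2). Ndufv1, which binds NADH, was at 219, 172, 287 and 308 CPM in controls and 209.6, 213, 320.5 and 280.3 CPM after DT (0.06 ± 0.17, adjusted p = 0.885, and -0.014 without control 2), with overlap in both batches. Ndufb7, an accessory subunit, had the only negative value of complex I in batch a (-0.08, against 0.22 in batch b).

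None of the 4 genes of complex II was called. Sdha, the flavoprotein that oxidises succinate, was at 423, 302, 461 and 474 CPM in controls and 345, 473, 502 and 427 CPM after DT, and the groups overlapped in each batch. Its log2 fold change was 0.08 ± 0.21 (adjusted p = 0.866), with -0.026 in batch b and -0.025 without control 2. Sdhb, the iron-sulfur subunit, had 0.29 ± 0.24 (adjusted p = 0.529), and the membrane anchors Sdhc and Sdhd had 0.12 ± 0.18 (adjusted p = 0.750) and 0.38 ± 0.26 (adjusted p = 0.448). Without control 2 these 3 were at 0.13, 0.05 and 0.17.

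The member with the highest control level was taken as an example of each remaining group. Ndufa3, an accessory subunit of complex I, was at 550.4 ± 65.7 CPM in controls and 649.9 ± 61.6 CPM after DT (SD, n = 4 each), with a log2 fold change of 0.24 ± 0.20 (SE, edgeR adjusted p = 0.527), and 0.18 without control 2. Ndufaf4, an assembly factor with the NRF1 palindrome, was at 47.4, 28.0, 61.0 and 80.5 CPM in controls and 57.6, 76.5, 71.4 and 103 CPM after DT (0.51 ± 0.22, adjusted p = 0.270, and 0.37 without control 2), with overlap in batch b only. Uqcrq, a small subunit of complex III, was at 927, 600, 921 and 1072 CPM in controls and 918, 1064, 1114 and 1272 CPM after DT (0.32 ± 0.23, adjusted p = 0.469). Cox6a1 was at 1209, 562, 1606 and 1848 CPM in controls and 1226, 1745, 2151 and 1941 CPM after DT (0.49 ± 0.28, adjusted p = 0.377), with DT above control within both batches. Atp5g3, 1 of 3 genes for the same c-ring subunit of ATP synthase, was at 1712, 667, 1599 and 1766 CPM in controls and 1563, 2364, 1994 and 2144 CPM after DT (0.51 ± 0.31, adjusted p = 0.395). For Uqcrq, Cox6a1 and Atp5g3 control 2 was the lowest sample, and without it their values were 0.19, 0.26 and 0.26.

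The other c-ring genes had positive values as well, without a call. Atp5g1 was at 469, 279.5, 552 and 702 CPM in controls and 510, 594, 779 and 804 CPM after DT (0.44 ± 0.23, adjusted p = 0.327). Atp5g2 was at 20.1, 0, 47.0 and 61.6 CPM in controls and 15.0, 35.1, 71.1 and 80.7 CPM after DT (0.68 ± 0.42, adjusted p = 0.407). Within batch b DT was above control for both genes, and without control 2 their values were 0.29 and 0.45. The 7 members with the NRF1 palindrome had log2 fold changes of 0.21 (Ndufa11), 0.34 (Uqcrc1), 0.39 (Atp5k), 0.49 (Cox6a1), 0.51 (Ndufaf4), 0.65 (Ndufaf5) and 0.68 (Atp5g2), within the range of all 83 tested members, 0.05 to 0.81. Without control 2 they were at 0.17, 0.19, 0.22, 0.26, 0.37, 0.53 and 0.45, in the same order.

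Tissue forms of complex IV subunits were mostly near or at 0 in the epithelium. Cox4i2, Cox8b and Ndufa4l2 had no UMI in any of the 8 samples, Cox6a2 had at most 0.83 CPM and Cox6b2 1.47 to 7.07 CPM, and none of these 5 was tested. Cox7a1 was the exception, at 280, 86.8, 297 and 291 CPM in controls and 273, 380, 381 and 228 CPM after DT (0.42 ± 0.33, adjusted p = 0.509), with overlap in both batches. Its broadly expressed counterpart Cox7a2 was at 586, 182, 622 and 691 CPM in controls and 484, 835, 831 and 731 CPM after DT (0.51 ± 0.33, adjusted p = 0.433). Cox6b1, the broadly expressed counterpart of Cox6b2, was at 959, 374, 941 and 1075 CPM in controls and 1034, 1424, 1256 and 1308 CPM after DT (0.61 ± 0.30, adjusted p = 0.314). Cox8a, the counterpart of Cox8b, was at 998, 391, 1368 and 1883 CPM in controls and 963, 1454, 1794 and 1716 CPM after DT (0.45 ± 0.32, adjusted p = 0.466). Ndufa4 was at 449, 147, 849.9 and 980.1 CPM in controls and 437, 740.4, 1283 and 1246 CPM after DT (0.71 ± 0.33, adjusted p = 0.288). Control 2 was the lowest control for all 5 genes, and without it Cox7a1 was at 0.12, Cox7a2 at 0.22, Cox6b1 at 0.35, Cox8a at 0.17 and Ndufa4 at 0.43.

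Other genes of mitochondrial energy metabolism were read from the same test, from lists drawn up with earlier results of these data known, and none of their genes was called. The mitochondrially encoded genes of the chain had the other sign: 10 of 11 tested were below 0, with a median of -0.41, -0.64 in batch a, -0.22 in batch b and -0.23 without control 2. In mt-Co1, the catalytic subunit of complex IV, the log2 fold change was -0.61 (adjusted p = 0.343). Cytochrome c and oxidase assembly genes were above 0 in 18 of 18 (median 0.28), fatty acid oxidation genes in 15 of 15 (0.42), citric acid cycle genes in 15 of 18 (0.17), and mitochondrial ribosomal protein genes in 74 of 74 (0.47, with 36 at an unadjusted p under 0.05). Regulators of mitochondrial biogenesis were divided, 5 above 0 and 6 below (median -0.0018), and glycolysis genes were above 0 in 8 of 13 (0.28). Leaving mitochondrially encoded genes out of the library sizes gave the members a median of 0.42.

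Markers of cell types moved with the treatment in the same samples. All 7 Paneth markers were below 0 after DT, 3 of them called (median -2.25, summed 5453 to 15880 CPM in controls and 876 to 2520 CPM after DT). All 5 tested tuft markers were below 0, 4 called (-3.21, 74.7 to 116 CPM against 12.5 to 23.4 CPM, with Il25 at 0 in all samples). All 8 villus tip enterocyte markers were below 0, 2 called (-0.71, 7546 to 11645 CPM against 5865 to 10008 CPM), among them Ada at 600 ± 29.9 CPM in controls and 146 ± 44.0 CPM after DT (-2.06 ± 0.24, adjusted p = 0.0106). All 10 immune markers tested were below 0 without a call (-0.57, 998 to 2385 CPM against 735 to 1232 CPM), and crypt markers were above 0 in 11 of 12 (0.34, 828.5 to 1516 CPM against 1143 to 1927 CPM). For the crypt markers the median was 0.47 with 10 of 11 above 0 in batch a, and 0.13 with 7 of 12 in batch b. Goblet markers were below 0 in 6 of 7 (-0.35, 5654 to 10777 CPM against 4237 to 6207 CPM), but their batches differed, with a median of 0.28 and 4 of 7 above 0 in batch a, and -0.996 and 1 of 7 in batch b. Enteroendocrine markers were below 0 in 7 of 7 (-0.63, 578 to 1008 CPM against 363 to 657 CPM). Epithelial markers were above 0 in 3 of 8 and below in 5, with none called (median -0.02). Their sum, 12925 to 18248 CPM in controls and 16771 to 26854 CPM after DT, was carried by Fabp1, at 8857 ± 2251 and 16660 ± 4329 CPM (0.91 ± 0.30, adjusted p = 0.222), while Krt20 (-0.55) and Vil1 (-0.61) were below 0. Mesenchymal markers summed to 10.3 to 19.6 CPM in controls and 3.33 to 24.2 CPM after DT. The part of these markers in the members' levels was not tested.

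Levels by cell type were read from the single cells, in which 2347 wells with 400 to 8000 UMIs and at least 250 genes (median 1359 UMIs) fell into 20 clusters. Neither the members nor the mitochondrially encoded genes were among the variable genes that defined the clusters. By markers, 1811 cells were epithelial-like, 336 mesenchymal-like and 200 immune-like. Within the epithelial-like cells 188 were villus bottom-like, 257 villus tip-like and 108 crypt-like, and a cluster of 169 cells was led by defensin genes, which are made by Paneth cells, and is called the defensin cluster here. In each of its 5 mice with at least 10 cells, villus tip markers summed to more than Paneth markers, at 8158 to 35287 CPM against 24.1 to 7370 CPM. Mouse E (2 cells) had 12739 CPM of tip and 176752 CPM of Paneth markers, and mouse F (3 cells) had 33794 and 0 CPM. Gip, an enteroendocrine gene, led the villus bottom-like cluster by fold, ahead of the antimicrobial genes Lypd8 and Reg1. Enteroendocrine markers, Gip among them, summed there to 4619 CPM in mouse B. In mice C, D, E and H they summed to 19.5, 35.3, 0 and 136 CPM. In total 683 of the cells came from gates set for doublets, and 377 of 380 barcodes occurred on more than 1 plate because each plate reuses the same wells. UMIs were summed per mouse and class, in mice with at least 10 cells of the class. The CPM of these sums are scaled to their UMI totals. Their log2 fold changes from edgeR also carry its TMM scaling, so they can differ in size from the CPM.

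The members' share of UMIs differed several-fold between the classes named here. Among these it was highest in villus bottom-like cells, 4.75% ± 1.08 (SD, n = 5 mice, 3.32% to 6.20%), and next in crypt-like cells, 3.53% ± 0.88 (n = 4, 2.61% to 4.47%), whose ranges overlapped. The defensin cluster was at 2.20% ± 0.55 (n = 5, 1.48% to 2.94%), overlapping the crypt-like range. Immune-like cells were at 1.49% ± 0.12 (n = 2), mesenchymal-like cells at 1.18% ± 0.20 (n = 3, 0.970% to 1.38%) and villus tip-like cells at 1.14% ± 0.22 (n = 3, 0.936% to 1.37%). The tip-like and mesenchymal-like values covered almost the same range, and all tip-like mice lay below all villus bottom-like and crypt-like mice. The tip-like class joined 2 clusters that differed, at 0.897% (156 cells) and 1.79% (101 cells) when pooled over cells. Several epithelial-like clusters could not be named, and pooled over cells 1 of them, with 131 cells, was at 4.93%, where the bottom-like cluster was at 4.73%.

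Within the epithelium the contrast of tip and bottom held in each mouse that had both classes. Mouse B was at 1.37% in tip-like and 4.60% in bottom-like cells, mouse C at 1.12% and 4.29%, and mouse D at 0.936% and 5.32%. The share of mitochondrially encoded RNA went the other way, at 7.08%, 10.7% and 8.11% in tip-like cells of mice B, C and D and 4.32%, 4.25% and 5.39% in their bottom-like cells. Taken as a share of the UMIs that were not mitochondrially encoded, the members were at 1.47%, 1.25% and 1.02% in tip-like cells and 4.81%, 4.48% and 5.63% in bottom-like cells. Of the members, 72 had at least 50 UMIs in these classes and the crypt-like class. In 57 of the 72 (79.2%) every tip-like mouse lay below every bottom-like mouse, where 24.3% of 3051 genes did so, and in 0 it lay above, where 10.2% did so. The minimum of 50 UMIs was taken over the same classes, so a member low in bottom-like and crypt-like cells could fail it. Cox6b2, with 29 UMIs, was left out in this way, and its tip-like mice all lay above its bottom-like mice. The background includes genes that defined these clusters, and the contrast of tip and bottom was not tested.

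**Figure D3:**
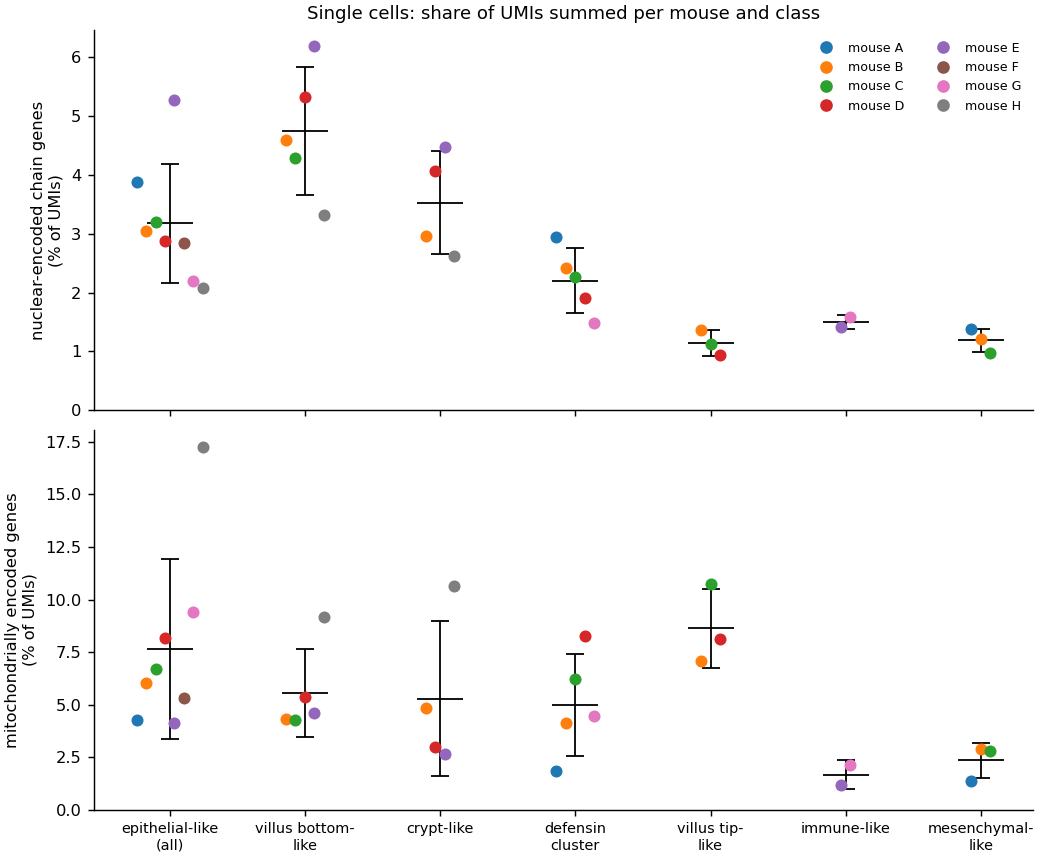
Share of summed UMIs from nuclear-encoded members (upper panel, %) and from mitochondrially encoded genes (lower panel, %) in each cell class, with 1 point per mouse, coloured by mouse, and mean ± SD. In the upper panel tip-like cells (0.936% to 1.37%) sit beside mesenchymal-like cells and below crypt-like (2.61% to 4.47%) and bottom-like cells (3.32% to 6.20%), and in the lower panel tip-like cells (7.08% to 10.7%) sit above the bottom-like cells of mice B, C and D.

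Between epithelial-like and mesenchymal-like cells, 57 of 79 tested members were called higher in epithelial-like cells (72.2%, against 24.0% of 7482 genes) and 0 lower (against 16.2%), over 8 and 3 mice. The median log2 fold change of the members was 1.83 against 0.37 over all genes, a difference of 1.45. With RLE scaling the medians were 1.45 and 0.04, a difference of 1.41, with 47 members higher and 1, Cox6b2, lower, against 20.5% and 21.8% of all genes. Mice A, B and C gave both classes, and with the mouse as a block 31 of 77 members were called higher (19.7% of all genes, with 9.02% lower), all of them among the 57. Mouse C gave most mesenchymal-like cells, 198 of 336, and without it 25 of 77 members were called (14.4% of all genes, with 4.53% lower). Without the cells from doublet gates the count was 49 of 76 (21.9% of all genes, with 12.9% lower), and DESeq2 called 51 of 79 (17.8%, with 18.4% lower).

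Every gene of complexes II and III was called higher in epithelial-like cells with TMM scaling and no block, 4 of 4 (median 2.44) and 8 of 8 (1.92). Complex IV had 11 of 13 (2.05), complex V 12 of 15 (2.04) and complex I 22 of 35 (1.44). The assembly factors of complex I had 0 of 3 and a median of -0.36. In mitochondrial ribosomal protein genes 9 of 69 were higher and 1 lower (median 0.39), in mitochondrially encoded chain genes 6 of 11 were higher (2.03), in the citric acid cycle 9 of 18 (1.90), in fatty acid oxidation 8 of 15 (1.53) and in glycolysis 10 of 11 (2.05).

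Cox7a1 differed most. It had no UMI among 396331 in the mesenchymal-like cells of mice A, B and C, and was at 464 ± 181 CPM in epithelial-like cells (SD, n = 8 mice, 243 to 843). All 8 epithelial-like values lay above the floor of 7.57 CPM that 3 counts over the group give, so the mean was at least 61.3-fold higher (adjusted p from edgeR under 0.05). Cox5a, a subunit of complex IV, was at 545 ± 166 CPM in epithelial-like and 35.2 ± 34.3 in mesenchymal-like cells (log2 fold change 3.83 ± 0.65, SE). Atp5g3 was at 1307 ± 409 and 175 ± 56.8 CPM (3.12 ± 0.58), Uqcrq at 750 ± 455 and 117 ± 35.0 (3.05 ± 0.61), and Uqcrfs1, the Rieske iron-sulfur protein of complex III, at 341 ± 133 and 39.7 ± 34.4 (2.92 ± 0.62). All 5 were called, and they belong to complexes III, IV and V.

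Isoforms of one subunit differed in where they were found. Cox6a2, the muscle form, had 5 and 2 UMIs in the immune-like cells of mice E and G (43.9 ± 20.97 CPM) and none in the other named classes, while Cox6a1 was at 400 ± 134 CPM in immune-like, 492 ± 247 in mesenchymal-like and 1215 ± 538 in epithelial-like cells. Cox6b2, the testis form, was at 64.0 ± 42.1 CPM in mesenchymal-like and 7.66 ± 8.89 in epithelial-like cells (log2 fold change -1.51 ± 0.69, adjusted p = 0.0736), and at 44.3 ± 21.1 in tip-like against 3.67 ± 5.04 in bottom-like cells. Ndufa4l2, the hypoxia-linked relative of Ndufa4, and Cox8b had UMIs only in mesenchymal-like cells among the named classes, at 13.9 ± 17.3 and 6.55 ± 5.81 CPM. Cox7a2l, which takes part in joining complexes III and IV, was at 305 ± 120 in mesenchymal-like and 141 ± 61.9 in epithelial-like cells (-0.36 ± 0.47, adjusted p = 0.577).

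Between villus tip-like and crypt-like cells, 29 of 69 tested members were called lower at the tip (against 31.9% of 2247 genes) and 1 higher (1.45%, against 39.0%), over 3 and 4 mice. In all, 62 of the 69 were below 0. Their median log2 fold change was -0.93 while that of all genes was 0.58, a difference of -1.51. With RLE scaling the medians were -0.76 and 0.75, with 23 members lower (30.4% of all genes) and 1 higher (42.6%). Genes needed at least 50 UMIs over the classes compared, so a member low at the tip could enter mainly through its crypt counts. At a minimum of 10 UMIs, 14 of 78 members were called lower and 1 higher, against 1371 and 1493 of 7068 genes. The members' share of lower calls was then not above that of all genes, while the medians were -0.76 and 0.29. These 2 classes were named from clusters, so many of the genes in the background were used to separate them. Mice B and D gave both classes, and with the mouse as a block 3 of 66 members were called lower, Atp5g1, Cox7b and Ndufa10 (26.3% of all genes), and none higher (23.3%). DESeq2 called 16 lower (27.9%) and 1 higher (37.7%). Without the cells from doublet gates 11 of 55 were lower (35.5% of all genes, with 37.0% higher), without mouse C 11 of 68 (31.6%, with 33.6% higher) and without mouse H 13 of 69 (28.0%). The mitochondrially encoded share was 8.64% ± 1.88 in tip-like and 5.29% ± 3.70 in crypt-like cells, and its part in the result was not tested.

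By complex, 15 of 31 members of complex I were lower at the tip (median -1.14), 5 of 8 of complex III (-1.19), 4 of 12 of complex IV (-0.83), 4 of 14 of complex V (-0.89) and 1 of 4 of complex II (-0.03), where 31.9% of all genes were lower. With the mouse as a block the 3 calls left were 1 each in complexes I, IV and V. Sdhd was the member of complex II that was called (-1.60 ± 0.54, and -1.76 with an adjusted p of 0.183 with the block). Sdha (-0.05), Sdhb (-0.01) and Sdhc (0.29) were near 0, where the median over all genes was 0.58. In CPM, complex II summed to 576 ± 42.3 in tip-like cells (527 to 603) and 1107 ± 133 in crypt-like cells (983 to 1282), without overlap. Mitochondrially encoded chain genes were above 0 in 7 of 10 (median 0.25), with mt-Co1 called higher (2.02 ± 0.51). Mitochondrial ribosomal protein genes were below 0 in 14 of 14, with 4 called. Glycolysis genes had 4 of 11 called higher (0.90) and fatty acid oxidation genes 2 higher and 1 lower of 8 (0.67), where 39.0% of all genes were higher.

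Atp5g1, the growth-regulated gene of the 3 for the c-ring, had the largest difference of the members. It was at 106, 50.2 and 19.9 CPM in tip-like cells of mice B, C and D and at 659, 755, 872 and 481 in crypt-like cells of mice B, D, E and H. The groups were far apart, with a log2 fold change of -2.64 ± 0.55 (edgeR adjusted p = 4.05e-06). Bottom-like cells were at 828 ± 298 CPM, and all 5 of their mice lay above the tip-like mice. Atp5g3, for the same protein, was at 367 ± 148 in tip-like, 1015 ± 269 in crypt-like and 1689 ± 437 CPM in bottom-like cells (tip against crypt -0.84 ± 0.43, adjusted p = 0.0695).

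Other large differences lay in complexes I, III and IV. Ndufc2 was at 23.8 ± 3.43 CPM in tip-like and 184 ± 84.3 in crypt-like cells (-2.22 ± 0.67), Ndufa10, an accessory subunit of complex I, at 32.2 ± 31.4 and 242 ± 24.0 (-2.01 ± 0.61), Uqcrh, the hinge protein of complex III, at 168 ± 56.8 and 954 ± 666 (-1.75 ± 0.48), and Cox7b, a subunit of complex IV, at 202 ± 71.8 and 1439 ± 760 (-1.98 ± 0.46). All 4 were called. Uqcrh lost its call with the mouse as a block (-0.84, adjusted p = 0.484), under which Ndufc2 was not tested, and Ndufc2 lost its call without mouse H (-1.87, adjusted p = 0.0772).

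Cox7a1 was the member called higher at the tip than in the crypt. It was at 185, 107 and 99.5 CPM in tip-like cells of mice B, C and D and at 63.5, 137, 103 and 83.6 in crypt-like cells of mice B, D, E and H. These values overlapped, though the gene was called (1.35 ± 0.61, edgeR adjusted p = 0.0394). That fold change carries TMM scaling, under which the median over all genes was 0.58, and the CPM differed by less. With the mouse as a block the adjusted p was 0.193, and without mouse H 0.152. At a minimum of 10 UMIs per gene Cox7a1 was not called (adjusted p = 0.0735) and Cox6b2 was the 1 member called higher at the tip. In bottom-like cells Cox7a1 was at 751 ± 184 CPM (508 to 1025), above the ranges of tip-like, crypt-like, immune-like and defensin cluster cells. It was also among the leading genes of the unnamed epithelial-like cluster of 131 cells, which was not part of this comparison.

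**Figure D4:**
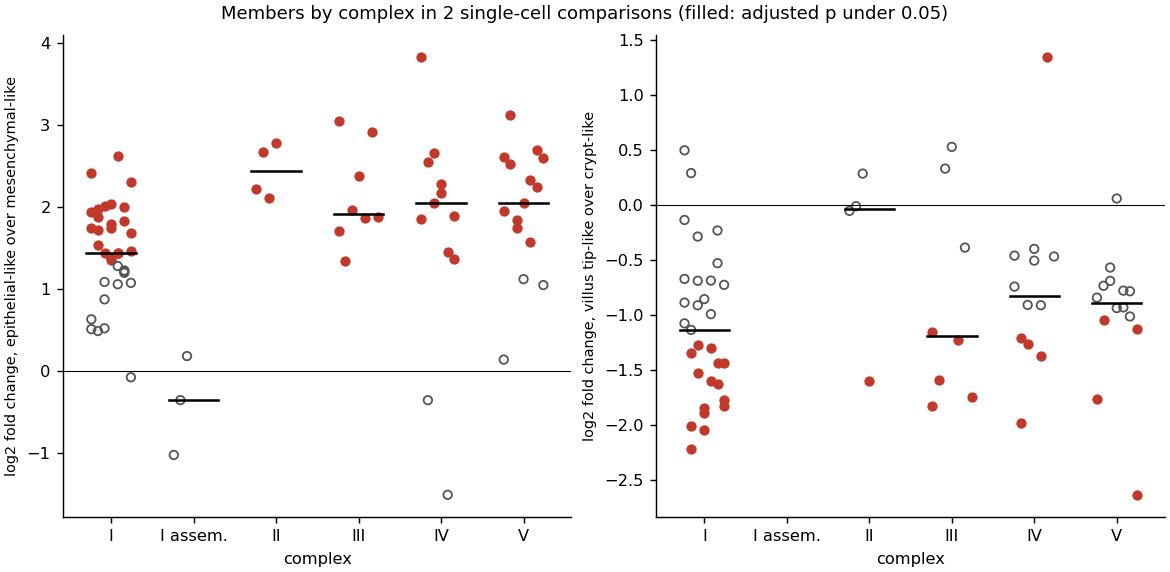
log2 fold change (y axis) of each tested member by complex (x axis) for epithelial-like over mesenchymal-like cells (left) and villus tip-like over crypt-like cells (right), with filled points for an adjusted p under 0.05 and bars for the median of the complex. Cox7a1 is left out of the left panel because its mesenchymal-like level was 0, and in the right panel it is the filled point above 0 while 29 filled points lie below 0.

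Position in the tissue was read from the stroma cut by LCM, in TPM, a level scaled to transcript length and library total. Of its 20778 gene symbols 86 met the naming rule, Cox4i1 and Ndufa13 among them. The members took 4.70% ± 2.45 of TPM in the crypt zone (SD, n = 3 mice), 5.32% ± 1.78 at the villus bottom, 5.08% ± 2.53 in the villus center and 3.78% ± 2.16 at the villus top (n = 5 each), and the ranges overlapped. Between top and bottom 0 of 84 members was called by limma, and 0 of 12000 genes (0%), with 529 genes (4.41%) and 6 members at an unadjusted p under 0.05. With the mouse as a block 25 members (29.8%) reached an unadjusted p under 0.05, against 7.99% of all genes, and the smallest adjusted p was 0.437. The median of the members was -1.05 on the log2(TPM + 1) scale, against -0.02 over all genes, and 79 of 84 were below 0. Ndufb6 was at 738 TPM at the bottom and 316 TPM at the top (-1.71 ± 0.70, adjusted p = 0.975), and Cox6a1 at 2066 and 1017 TPM (-1.24 ± 0.67, adjusted p = 0.975). Without mouse 4 the median was -0.52. Epithelial markers were present in these stromal cuts and differed in the same direction, summing to 11826 ± 4835 TPM at the bottom and 4932 ± 3096 TPM at the top. Over the 18 values of 1 mouse and zone, which share mice and libraries, their sum and the members' share had a Pearson's r of 0.70 and a Spearman's rho of 0.65.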

How the data were processed

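Jejunal epithelium was sequenced by the authors with mcSCRB-seq and single cells with MARS-seq, and UMIs were assigned with zUMIs on GRCm38. The deposited counts are UMIs per gene, not normalized. LCM libraries (SMART-seq) were quantified with kallisto, and the authors deposited TPM per gene, with no depth. 352 wells of a plate that matched no sample were not used.

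Bulk counts were tested in R 4.3.3 with edgeR 4.0.16 (robust quasi-likelihood, TMM, batch as a term) on genes above 1e-05 of UMIs in at least 2 samples. Batches were taken from the study's supplementary data. Single cells were clustered with Seurat 5.3.0 at resolution 2, without a doublet caller and without subtracting background, and sums per mouse and class were tested with edgeR on genes with at least 50 UMIs. TPM means per mouse were tested with limma 3.58.1 on log2(TPM + 1), for genes above 5 TPM in a zone. DESeq2 1.42.0 was an alternative. Benjamini-Hochberg adjusted p under 0.05 counted as called. Scripts were tested on simulated data: in the simulated DT comparison 5 of 50 genes changed 1.5-fold and 32 of 50 changed 2-fold were recovered, while 2-fold changes were recovered for 0 (epithelial-like against mesenchymal-like) and 1 (tip-like against crypt-like) of 50 in single cells and 1 of 50 in LCM. Mice of each group are separate animals.

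Members and lists were chosen with earlier results of these data known. Genes named were the 5 members with the smallest p in the DT comparison, the member with the highest control level in each complex, isoform groups, the Sdh genes, and the 5 members with the largest difference between epithelial-like and mesenchymal-like cells. Ndufaf5, Ndufs8, Ndufb7, Ndufb11, Ndufv1, Uqcr10, Ndufa10, Cox7b and Uqcrh were named after their values were seen. Same-numbered bulk samples deviated together (r of 0.41 to 0.66 from group means), but not within batches (-0.16 and -0.06). Single cells of different classes, and LCM zones, shared mice. The main tests of both had no term for the mouse, which entered only in the fits with the mouse as a block.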

Additional observations from a re-analysis of the deposited data

Results flagged for a closer look

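Of 89 groups of values examined for a single sample far from the rest, 6 had one, and chance gives about 1 in 20. Control 2 was the low sample in 3 of them: Atp5g3 at 667 CPM where the next control had 1599 CPM, Cox7a1 at 86.8 CPM where the next had 280.2 CPM, and Cox6b2 at 1.47 CPM where the next had 4.95 CPM. After DT, Ndufaf2 in DT 2 stood above the others, at 56.5 CPM against 43.4 CPM, and summed complex IV in DT 1 stood below them, at 8271 CPM against 12088 CPM. In the villus center of the LCM stroma, mouse 1 had 9.56% of its TPM in the members and the next mouse 4.52%.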

How the results depend on the processing

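In the DT comparison, 0 members were called under the alternatives run except 3 with no filter on low counts. Genes called over the whole table, 32 in all, were 159 with DESeq2, 635 with no filter, 1 with no batch term, 3 with the replicate block, 0 in batch a alone, 5 in batch b alone (10 with RLE) and 3 to 41 with a sample left out, 21 of them without control 2. The median of the members ranged from 0.27 to 0.57 with a sample left out. Sdha reversed to -0.026 in batch b alone, and ranged from -0.025 without control 2 to 0.16 without DT 1, with a reversal also without DT 2. Atp5sl reversed to -0.0059 in batch b alone. In the LCM test Sdha ranged from -0.62 without mouse 4 to 0.052, a reversal, without mouse 3. The cause was not tested. Between epithelial-like and mesenchymal-like cells, members called higher were 31 with the replicate block and 25 to 58 with a mouse left out. Members called lower were 1 with RLE (Cox6b2), 1 at 10 UMIs (Ndufa4l2) and 0 to 1 with a mouse left out, and the median was 1.45 with RLE. Between tip-like and crypt-like cells, members called lower were 16 with DESeq2, 14 at 10 UMIs, 3 with the replicate block, 11 without doublet gates and 11 to 26 with a mouse left out. The 1 called higher became 0 with the replicate block, at resolution 1, without doublet gates and without mouse B or mouse H. The median was -1.34 at 5 cells per class, -0.70 without doublet gates and -1.31 to -0.80 with a mouse left out. With the wider cell filter no crypt-like class was named and this comparison could not be run. Leaving out mitochondrially encoded genes, doublet gates or the cluster of mostly 1 mouse, the batch-by-group test, and the counts of members above the controls left without control 2, were chosen after seeing the data.

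Single cells hold few UMIs of most members per mouse, TPM give no depth, and the bulk comparison has 2 mice per group and batch. Pairing by replicate number changed no member call in the DT comparison.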
